A study of Homo sapiens with 10 samples.

Results

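The 10 genes described here encode the CDK inhibitors of the Cip/Kip family (CDKN1A, CDKN1B and CDKN1C) and of the INK4 family (CDKN2A, CDKN2B, CDKN2C and CDKN2D), the ubiquitin ligase subunit SKP2 with its cofactor CKS1B, and cyclin D1 (CCND1). They were taken by gene name out of 62656 genes in the deposited table. All 10 were present there, and 10 of 10 reached the mean of 0.5 RPKM over all libraries (reads over gene length in kilobases and over a factor of each library) that was asked for before testing. RNA was taken from PC3, a human prostate cancer line derived from a bone metastasis, grown in RPMI-1640 with serum and L-Glu. After overnight starvation the cells received 1 µM GW3965, which activates the liver X receptors (LXRs), or the vehicle DMSO alone, for 24 h. There were 5 libraries per condition, all from 1 cell line, and nothing in the records says whether they came from separate cultures, so p-values measure only the spread between these libraries. The question put to these genes is whether their transcripts moved with LXR activation.

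Progression from G1 to S phase is driven by cyclin D with CDK4 or CDK6, and then by cyclin E with CDK2, which phosphorylate RB and release E2F transcription factors. INK4 proteins bind CDK4 and CDK6 and keep them from cyclin D, whereas Cip/Kip proteins bind assembled cyclin and CDK complexes and act mainly on CDK2. SKP2, aided by CKS1B, marks phosphorylated p27 for degradation as the substrate-binding subunit of an SCF ubiquitin ligase, so the level of p27 protein can change while its transcript does not.

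Short stretches of sequence are shown, because the values that follow are read beside them. They hold a match to an LXR element in ABCA1, which is not among the 10 genes. For some of the 10 they hold matches to GC boxes or to a miRNA seed. LXRs with RXR bind direct repeats spaced by 4 bases (DR4). ABCA1, a cholesterol exporter and LXR target gene, held 1 match to a relaxed DR4 (AGGTNANNNNNGGTCA, searched on both strands) in its RefSeq promoter of the GRCh38.p14 build, from 250 bases before to 50 bases after the start. The capitals mark this match, which lies on the strand opposite to the gene, or the GC boxes (GGGCGG) of CDKN1A and CDKN2B, to which SP1 and KLF family factors bind.
ABCA1 chr9:104928202-104928231, minus strand: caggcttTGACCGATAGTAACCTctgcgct
CDKN1A chr6:36678603-36678632, plus strand: ccggggaGGGCGGtcccGGGCGGcgcggtg
CDKN1A chr6:36678660-36678689, plus strand: ggcgggcccGGGCGGGGCGGttgtatatca
CDKN2B chr9:22009422-22009451, minus strand: gggcaggcttccCCGCCCtcgtgacgcgtc
CDKN2B chr9:22009366-22009395, minus strand: acagcggacaggGGGCGGagcctaaggggg
RefSeq promoters were found for 8 of the 10 genes, 11 promoters in all, and CDKN1C and CCND1 had no entry. The relaxed DR4 was matched in 0.094% of 35116 promoters and in 0 of the 11. It was not matched either in the promoters of SREBF1, MYLIP and SCD, LXR target genes that rose with GW3965. The lack of a match in this window therefore does not set the 11 promoters apart from those of LXR target genes. The stricter form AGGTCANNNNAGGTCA, whose matches are a subset of the relaxed ones, was found in 7 promoters (0.0199%) and also in 0 of the 11. GC boxes were common, with a match in 45.0% of all promoters and in 9 of the 11. CDKN1A had 4 of them in the 250 bases before its start, the last of which overlap by 1 base, and CDKN2B had 2, of which 1 lies on the opposite strand. A match to letters is a description and not a measured site of binding.

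A second set of sequences concerns CDKN1B, a well-known target of miR-221 and miR-222. The mature sequences are shown with the seed, bases 2 to 8, in capitals, and both share 1 seed.
hsa-miR-221-3p: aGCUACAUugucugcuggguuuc
hsa-miR-222-3p: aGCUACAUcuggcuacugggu
Matches to that seed (ATGTAGC, in capitals) after the stop codon were looked for in GENCODE 29 transcripts on GRCh38.
CDKN1B chr12:12721213-12721235, plus strand: ctctaaaagcgttggATGTAGCa
CDKN1B chr12:12721286-12721308, plus strand: tagtttttaccttttATGTAGCa
CDKN1C chr11:2883828-2883850, minus strand: cggctgggaccgttcATGTAGCa
CDKN2B chr9:22004946-22004968, minus strand: aactacagctcttaaATGTAGCa
Such a match was found in 3 of the 10 genes and in 9.50% of 19940 protein-coding genes. The miRNAs themselves were not measured here. MIR222HG, their host transcript, which was added after its values were seen, was at 10.3 ± 1.88 RPKM (SD, n = 5) with DMSO and 12.0 ± 1.41 with GW3965 (limma, log2 fold change 0.24 ± 0.13 (SE), adjusted p = 0.777).

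Facts of the whole data set that touch these genes are as follows. The reads behind the deposited values were recovered as whole numbers for 100% of the values above 0 (within 0.01 reads), and the libraries held from 30431691 to 41638861 reads. Of 8 genes of LXR signaling, 6 rose and 0 fell with GW3965. They were the sterol exporters ABCA1 (log2 fold change 2.29) and ABCG1 (2.13), the lipid synthesis genes FASN (0.91), SCD (0.85) and SREBF1 (0.74), and MYLIP (0.74), which encodes a ligase for the LDL receptor. Their adjusted p lay between 0.000108 and 0.00714 by limma. The receptor genes NR1H3 and NR1H2 were at log2 fold changes of -0.01 and -0.02. Epithelial keratins fit the label, with KRT8, KRT18 and KRT19 at means of 36.6, 49.6 and 149 RPKM, and VIM was at 69.5 RPKM, while CDH1 was low at 0.285 RPKM. The prostate marker KLK3 was listed at 0 in all libraries. Of 10 markers of other cell types, 7 did not reach the filter, and the highest was COL3A1 at 3.47 RPKM. DMSO 1, GW3965 1 and GW3965 2 stood apart from the other 7 libraries on the first principal component of the reads, which held 48.5% of the variance over 500 genes, with scores from 8.08 to 9.90 against at most 2.62 in the rest. At the other end of the component, DMSO 4 scored -10.1 and GW3965 5 scored -6.20. Without DMSO 1, GW3965 1 and GW3965 2, 4 of the 8 LXR genes passed the test.

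In the whole comparison, 32 of 20402 tested genes passed an adjusted p of 0.05 (0.157%), 30 of them higher (0.147%) and 2 lower (0.0098%) with GW3965, by limma on log2(RPKM + 0.1) with Benjamini-Hochberg adjustment over all tested genes. Of the 10 genes, 0 passed this test. By voom on the recovered reads, 0 passed as well. Without adjustment, 0 of the 10 had a p under 0.05 in limma, where 6.99% of all tested genes did, and in 0 of the 10 did the groups not overlap, where 1.84% did. The count of unadjusted p under 0.05 was not 0 in 10 of 22 alternatives, 1 of them voom with 1 gene. It reached 3 at most, with the first principal component as a covariate, where 2531 of 20402 tested genes were under 0.05. In the main fit 1427 were. CDKN2B was under an unadjusted 0.05 in 7 of the 22, CDKN2D in 8 and CCND1 in 1. The alternatives reuse mostly the same libraries, so these counts do not add up as support. Log2 fold changes of the 10, which are on the log2(RPKM + 0.1) scale and slightly understate changes of low values, ran from -0.21 to 0.26 with a median of -0.02, and the median over all tested genes was 0.00. There were 4 genes higher and 6 lower with GW3965, and 7 higher and 3 lower without DMSO 1, GW3965 1 and GW3965 2. Across the 10 genes the 95% intervals, which were not adjusted for the number of genes, reached from a fold of 0.736 to a fold of 1.45. For 6 genes the whole interval lay within 1.25-fold either way. The intervals cover only the spread between these libraries, so they are not a strict bound on what could have been missed.

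**Figure D1:**
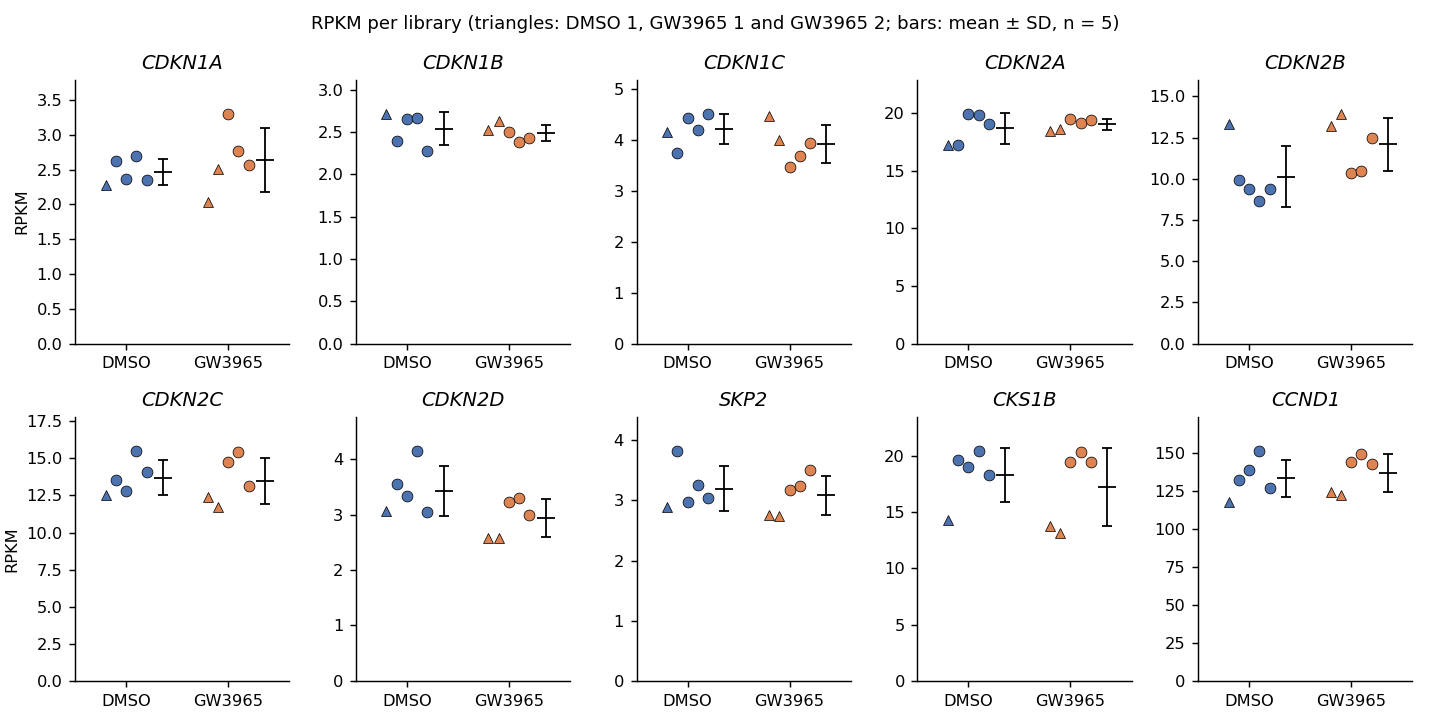
RPKM of the 10 genes in each library, with DMSO in blue and GW3965 in orange, from 0 on each vertical axis. Bars give mean ± SD of 5 libraries and triangles mark DMSO 1, GW3965 1 and GW3965 2. The groups overlap in every panel, and in the panel of CKS1B the triangles lie between 13.1 and 14.3 RPKM, below all circles.

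Among the Cip/Kip genes, CDKN1A encodes p21, which halts the cycle downstream of p53 and other signals. It lies on chr6:36676460-36687339 (GRCh38, plus strand). CDKN1A was at 2.27, 2.62, 2.37, 2.69 and 2.35 RPKM in DMSO libraries 1 to 5 and at 2.03, 2.51, 3.30, 2.76 and 2.56 RPKM in GW3965 libraries 1 to 5. GW3965 held both the lowest and the highest library, so its range spanned that of DMSO. The means were 2.46 ± 0.185 and 2.63 ± 0.458 RPKM (SD, n = 5), and the log2 fold change was 0.08 ± 0.11 (SE) with a 95% interval of -0.17 to 0.33 (limma, adjusted p = 0.950). The direction rested on GW3965 3, without which the log2 fold change was -0.0014. From 207 to 374 reads per library stood behind these values. The antisense transcript DINOL shares 146 exon bases with CDKN1A, and the strand setting used in counting is not given in the sources used here.

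CDKN1B encodes p27, the main substrate of SKP2 in the cell cycle, and lies on chr12:12715058-12722371 (plus strand). It was at 2.71, 2.40, 2.65, 2.67 and 2.27 RPKM in the DMSO libraries and at 2.52, 2.62, 2.49, 2.38 and 2.42 RPKM in the GW3965 libraries. All GW3965 libraries lay inside the DMSO range. The log2 fold change was -0.03 ± 0.07 (SE), with an interval of -0.18 to 0.12 (limma, adjusted p = 0.977). With 682 to 971 reads per library, CDKN1B was the Cip/Kip gene with the narrowest interval.

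CDKN1C encodes p57, the imprinted member of the family, and lies on chr11:2883213-2885773 (minus strand). Its values were 4.16, 3.75, 4.44, 4.18 and 4.50 RPKM with DMSO and 4.47, 4.005, 3.47, 3.69 and 3.93 RPKM with GW3965. Of the GW3965 libraries, 1 reached the DMSO mean of 4.21 RPKM and the lowest 2 lay under the whole DMSO range. On the log2 scale the change was -0.10 ± 0.08 (SE), with an interval of -0.28 to 0.07 (limma, adjusted p = 0.870).

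Of the INK4 genes, CDKN2A encodes p16 and, from another first exon and reading frame, ARF, and gene-level values add both. It lies on chr9:21967753-21995301 (minus strand). CDKN2A was at 17.3, 17.3, 19.9, 19.9 and 19.1 RPKM with DMSO and at 18.4, 18.7, 19.5, 19.2 and 19.4 RPKM with GW3965. The GW3965 libraries were closely spaced within the DMSO range. This gave a log2 fold change of 0.03 ± 0.06 (SE), with an interval of -0.10 to 0.15 (limma, adjusted p = 0.965), the narrowest of the 10 genes. CDKN2B-AS1, an antisense transcript, shares 341 exon bases with CDKN2A. It was at 0.618 ± 0.144 RPKM with DMSO and 0.579 ± 0.096 with GW3965 (limma, log2 fold change -0.07 ± 0.20 (SE)).

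CDKN2B, which encodes p15, a target of TGF-beta signaling, had the largest difference of the 10 genes and lies next to CDKN2A on chr9:22002903-22009363 (minus strand). It was at 13.3, 9.95, 9.37, 8.65 and 9.36 RPKM in DMSO libraries 1 to 5 and at 13.2, 13.9, 10.4, 10.5 and 12.5 RPKM in GW3965 libraries 1 to 5. All 5 GW3965 libraries were above the DMSO mean and above 4 of the DMSO libraries, and the groups overlapped through DMSO 1 alone. The means were 10.1 ± 1.84 and 12.1 ± 1.61 RPKM (SD, n = 5). On the log2 scale the difference was 0.26 ± 0.12 (SE), with an interval of -0.01 to 0.53. This did not pass the test (limma, adjusted p = 0.734), and 15.2% of all tested genes had a log2 fold change at least as large in size. The libraries that stood apart on the first principal component, DMSO 1 and GW3965 1 and 2, were the 3 highest in CDKN2B, with 13.2 to 13.9 RPKM against 8.65 to 12.5 in the other 7. Over all 22 alternatives, among them the loss of these 3 libraries and the component as a covariate, the log2 fold change of CDKN2B lay between 0.21 and 0.36, with limma or voom adjusted p of at least 0.320.

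CDKN2C encodes p18 and lies on chr1:50960745-50974633 (plus strand). It was at 12.5, 13.6, 12.8, 15.5 and 14.1 RPKM with DMSO and at 12.4, 11.7, 14.8, 15.4 and 13.1 RPKM with GW3965. Both groups spread over a similar range, with the lowest 2 libraries in GW3965. Its log2 fold change was -0.02 ± 0.09 (SE), with an interval of -0.22 to 0.17 (limma, adjusted p = 0.983), and its sign changed in 6 of 22 alternatives.

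CDKN2D encodes p19 of the INK4 family, a protein apart from ARF, and lies on chr19:10566462-10569059 (minus strand). It had the largest fall in value of the 10 genes, without passing the test. Values were 3.06, 3.54, 3.34, 4.14 and 3.05 RPKM with DMSO and 2.58, 2.58, 3.23, 3.30 and 2.99 RPKM with GW3965. No GW3965 library reached the DMSO mean, and 3 of 5 were under every DMSO library. The means were 3.43 ± 0.447 and 2.94 ± 0.347 RPKM (SD, n = 5), and the log2 difference was -0.21 ± 0.10 (SE) with an interval of -0.44 to 0.01 (limma, adjusted p = 0.736). Only 132 to 237 reads per library stood behind CDKN2D, the fewest of the 10 genes. The log2 fold change was -0.14 without DMSO 1, GW3965 1 and GW3965 2.

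SKP2 lies on chr5:36151989-36184319 (plus strand). It was at 2.89, 3.81, 2.97, 3.26 and 3.04 RPKM with DMSO and at 2.75, 2.74, 3.17, 3.24 and 3.50 RPKM with GW3965. Its highest library was DMSO 2 and its lowest were GW3965 1 and 2. The log2 fold change was -0.05 ± 0.10 (SE), with an interval of -0.26 to 0.16 (limma, adjusted p = 0.965), and it turned to 0.01 without DMSO 2.

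CKS1B, the small protein that helps SKP2 to dock p27, lies on chr1:154974653-154979249 (plus strand) and had the widest interval. It was at 14.3, 19.6, 19.0, 20.4 and 18.3 RPKM with DMSO and at 13.8, 13.1, 19.4, 20.3 and 19.4 RPKM with GW3965. Its values fell apart by library and not by condition, with DMSO 1 and GW3965 1 and 2 at 13.1 to 14.3 RPKM and all others at 18.3 to 20.4. The log2 fold change was -0.10 ± 0.14 (SE), with an interval of -0.42 to 0.22 (limma, adjusted p = 0.950), and it was 0.03 without these 3 libraries. With the loss of 1 library it lay between -0.19, without DMSO 1, and -0.01, without GW3965 2. CKS1B is uncertain also because 11.3% of its 50-base stretches also occur in other genes, most in the processed pseudogenes CKS1BP3 and CKS1BP2. In the deposited values CKS1BP3 was at 28.1 ± 4.55 RPKM with DMSO and 25.9 ± 6.81 with GW3965, and how the counting split reads among these near-identical copies is not given in the sources used here.

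CCND1, cyclin D1, lies on chr11:69641087-69654474 (plus strand) and was the most abundant of the 10, with 19448 to 27418 reads per library. It was at 118, 132, 139, 151 and 127 RPKM with DMSO and at 124, 123, 144, 150 and 143 RPKM with GW3965. Both the lowest and the highest library were DMSO. The means were 134 ± 12.4 and 137 ± 12.5 RPKM (SD, n = 5), and the log2 difference was 0.04 ± 0.08 (SE) with an interval of -0.15 to 0.22 (limma, adjusted p = 0.974). In GENCODE 29 it shares 497 exon bases with LTO1 on the opposite strand. LTO1, listed as ORAOV1 in the deposited table, was at 2.98 ± 0.175 RPKM with DMSO and 2.86 ± 0.122 with GW3965.

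**Figure D2:**
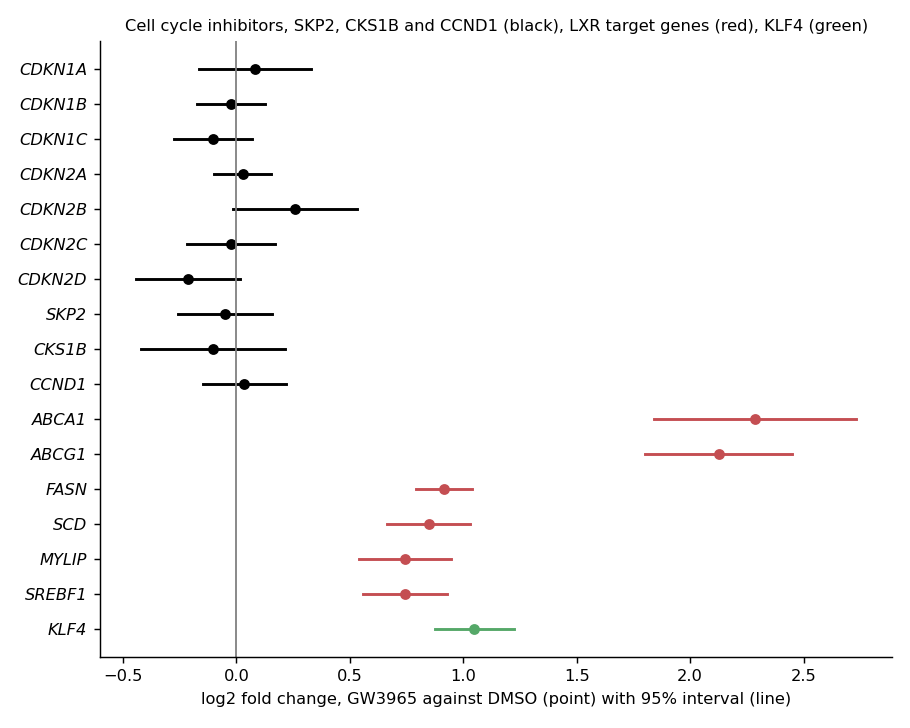
Log2 fold change of GW3965 against DMSO (points) with 95% intervals from limma (lines) on the log2(RPKM + 0.1) scale, for the 10 genes in black, 6 LXR target genes in red and KLF4 in green. All 10 black intervals include 0, from CDKN2D at -0.21 to CDKN2B at 0.26, and the red and green points lie between 0.74 and 2.29.

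Ratios between genes were taken within each library, as differences of log2(RPKM + 0.1), and 4 were compared with exact permutation of the library labels, two-sided (smallest possible p = 0.00794), adjusted over the 4. Cyclin D1 makes up nearly all D-type cyclin transcript in these cells, as CCND1 held from 95.6 to 96.8% of the summed RPKM of CCND1, CCND2 and CCND3. CCND2 had 7 reads over the DMSO libraries and 7 over the GW3965 libraries. CCND3 was at 5.42 ± 0.585 RPKM with DMSO and 4.83 ± 0.602 with GW3965 (limma, log2 fold change -0.16 ± 0.10 (SE), adjusted p = 0.819).

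The log2 ratio of CCND1 to CCND2 plus CCND3 was 4.68, 4.64, 4.63, 4.63 and 4.42 in the DMSO libraries and 4.89, 4.75, 4.67, 4.80 and 4.88 in the GW3965 libraries. It was higher in 4 of 5 GW3965 libraries than in any DMSO library, and GW3965 3 lay just under DMSO 1. The difference was 0.20 on the log2 scale, from 4.60 ± 0.10 to 4.80 ± 0.09 (SD, n = 5; exact permutation test, p = 0.0159). After adjustment over the 4 ratios it did not pass the threshold (exact permutation test, adjusted p = 0.0635). With a pseudocount of 1 RPKM the adjusted p was 0.0317 (exact permutation test), where the groups no longer overlapped.

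The log2 ratio of CDKN1A to CDKN1B, the 2 general inhibitors, was -0.04 ± 0.15 with DMSO and 0.06 ± 0.26 with GW3965 (SD, n = 5; exact permutation test, adjusted p = 0.783). SKP2 to CDKN1B, ligase subunit against substrate, was at 0.32 ± 0.22 and 0.29 ± 0.20 (SD, n = 5; exact permutation test, adjusted p = 0.857). CCND1 to CDKN1B was at 5.66 ± 0.15 and 5.72 ± 0.18 (SD, n = 5; exact permutation test, adjusted p = 0.783). None of these 3 differed by more than the spread between libraries. The levels of these 3 ratios rest on the gene lengths behind the deposited values. For CDKN1B, which is in all 3, that length was 9255 bases against 2811 in GENCODE 29.

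By level per length, the deposited means over the 10 libraries ordered the genes as CCND1 (135 RPKM), CDKN2A (18.9), CKS1B (17.8), CDKN2C (13.6), CDKN2B (11.1), CDKN1C (4.06), CDKN2D (3.18), SKP2 (3.14), CDKN1A (2.55) and CDKN1B (2.51). Neighbors overlapped in their library values everywhere except between CCND1 and CDKN2A and between CDKN2B and CDKN1C. This order depends on the gene lengths behind the deposited values. For SKP2 that length was 17377 bases against 3837 exon bases in GENCODE 29, and for CDKN1B it was 9255 against 2811. With GENCODE 29 lengths SKP2 stood at 14.2 RPKM, rank 4 in place of 8, and CDKN1B at 8.28 RPKM, rank 7 in place of 10. The lengths of the other 8 genes were from 0.897 to 1.00 times those of GENCODE 29. A fold change between conditions does not depend on the length.

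Several of these genes differed between the 3 libraries that stood apart and the other 7, across both conditions. SKP2, CKS1B, CDKN2C and CCND1 were each lower in DMSO 1, GW3965 1 and GW3965 2 than in all other 7 libraries, CDKN2B was higher, and the other 5 genes overlapped. E2F1, the activator of S phase genes, was at 8.17 to 9.12 RPKM in these 3 and at 12.8 to 15.4 RPKM in the other 7. PCNA, the DNA polymerase clamp, chosen once its values were known, was at 44.9 to 52.7 against 65.1 to 77.4 RPKM, and CDK2 was at 6.08 to 7.02 against 8.14 to 10.5 RPKM. CDK6 did not split in this way, at 4.61 to 5.59 against 2.78 to 5.34 RPKM. The 3 libraries were found by a component computed on expression, so this is a description without a test. How many of all tested genes split in this way was not counted, so the split is not shown to be particular to these genes. In bulk RNA, fewer cells in S phase and less of a transcript per cell cannot be told apart. As 2 of them were GW3965 and 1 was DMSO, the split weighed unequally on the conditions.

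**Figure D3:**
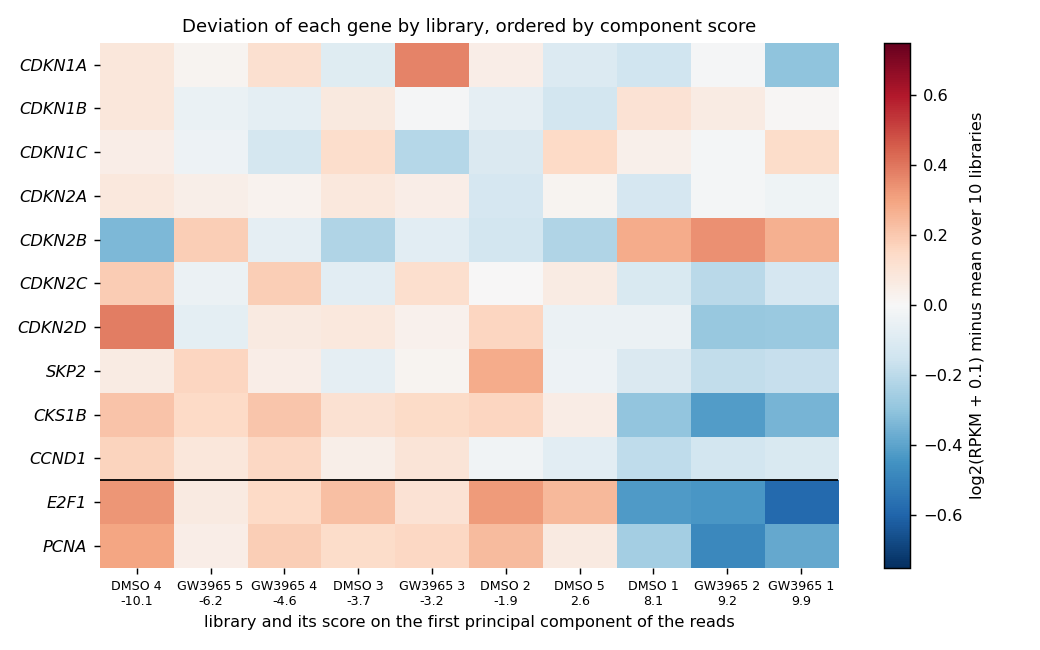
Deviation of log2(RPKM + 0.1) from each gene's mean over the 10 libraries, blue for lower and red for higher, with the libraries (columns) ordered by their score on the first principal component of the reads, printed under each name. In the 3 columns on the right, with scores from 8.08 to 9.90, CKS1B, CCND1, SKP2, CDKN2C, E2F1 and PCNA are blue and CDKN2B is red.

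The partners of the 10 genes were looked at through lists of named genes. By voom on the recovered reads the lists that follow gave the same counts as limma, 1 gene past the threshold among the regulators of CDK inhibitor genes and 0 in each of the others. Of 12 tested cyclins and CDKs of G1 and S phase, 0 passed the test (limma, lowest adjusted p = 0.603), with 2 higher, 10 lower and a median of -0.12 on the log2 scale, against 0.00 over all genes. Without DMSO 1, GW3965 1 and GW3965 2 the median was -0.06, with 4 higher and 8 lower. Among them, 1 had an unadjusted p under 0.05, CDK6, a partner of cyclin D and target of INK4 proteins, at a log2 fold change of 0.35 ± 0.14 (SE). CDK6 was at 4.61, 4.23, 3.97, 2.78 and 4.91 RPKM with DMSO and at 5.54, 5.59, 5.34, 4.72 and 4.67 RPKM with GW3965, with overlap through DMSO 5 alone. Its log2 fold change was 0.22 without DMSO 4, and its unadjusted p was no longer under 0.05 without GW3965 1, without GW3965 2 or without the 3 libraries. CDK4 had a log2 fold change of -0.07 ± 0.09 (SE), and the cyclin E genes CCNE1 and CCNE2 and their partner CDK2 had -0.25 ± 0.12, -0.26 ± 0.17 and -0.25 ± 0.13, none past the threshold. CCNE2 was at -0.13 without the 3 libraries and at -0.35 without DMSO 1, and CDK2 was at -0.17 and -0.33.

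Of 22 tested genes of the SCF ligase and of the turnover of p27, p21 and cyclin D1, 0 passed the test, with 0 at an unadjusted p under 0.05 and a median of -0.03. Log2 fold changes lay between -0.19, for DTL, which targets p21 for degradation in S phase, and 0.07, for the ubiquitin-conjugating enzyme UBE2R2. The scaffold CUL1 was at 0.00 ± 0.08 (SE), the adaptor SKP1 at -0.03 ± 0.08 and the ring protein RBX1 at -0.10 ± 0.09. CKS2, the paralog of CKS1B, was at -0.02 ± 0.12.

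Of 17 tested genes of the RB and E2F families, 0 passed by limma, with 0 at an unadjusted p under 0.05 and a median of -0.04. RB1 was at 5.14 ± 0.549 RPKM with DMSO and 5.03 ± 0.218 with GW3965 (limma, log2 fold change -0.03 ± 0.08 (SE)). E2F5 was the 1 gene here whose groups did not overlap, at 3.02 ± 0.038 and 3.22 ± 0.051 RPKM, with a log2 fold change of 0.09 ± 0.05 (SE, limma, adjusted p = 0.800). E2F1 and E2F2 had log2 fold changes of -0.28 ± 0.18 and -0.36 ± 0.20 (SE). For E2F1 the value was -0.42 without DMSO 1, -0.17 without GW3965 1 and -0.17 without the 3 libraries.

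E2F target genes of S phase, 20 tested, gave 0 past the threshold and 0 at an unadjusted p under 0.05 in limma, yet 19 of 20 were lower in value with GW3965. Their median log2 fold change was -0.20 and their median SE was 0.17. These genes share their regulators and are not independent of one another. Without DMSO 1, GW3965 1 and GW3965 2 the median was -0.07 with 15 of 20 lower. With the first principal component as a covariate it was -0.12 with 17 of 20 lower. In the main fit RRM2, a subunit of ribonucleotide reductase, was the lowest with -0.33 ± 0.19 (SE). The checkpoint kinase CHEK1 was the only higher one there with 0.05 ± 0.08. With the loss of 1 library RRM2 lay between -0.42, without GW3965 4, and -0.21, without GW3965 1. It was -0.13 without the 3 libraries and -0.25 with the component as a covariate.

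Of 26 tested transcriptional regulators of CDK inhibitor genes, 1 rose, 0 fell and 25 did not pass the test. The gene that rose was KLF4, a zinc finger factor known to activate CDKN1A in several epithelia. KLF4 was at 2.79, 2.82, 3.01, 2.76 and 2.37 RPKM with DMSO and at 5.99, 5.90, 5.50, 5.16 and 6.42 RPKM with GW3965. Every GW3965 library was above every DMSO library. The means were 2.75 ± 0.235 and 5.80 ± 0.483 RPKM (SD, n = 5), and the log2 difference was 1.05 ± 0.08 (SE; limma, adjusted p = 0.000178). CDKN1A, with its GC boxes shown above, had 0.08 ± 0.11 in the same libraries. ID2, an antagonist of bHLH factors, followed with 0.32 ± 0.14 (SE; limma, adjusted p = 0.715), while VDR, with -0.24 ± 0.18, and the Polycomb gene CBX7, with -0.22 ± 0.12, were at the other end. The median of the list was 0.00.

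Of 20 tested p53 response genes, 0 passed the test, 0 had an unadjusted p under 0.05, and log2 fold changes lay between -0.07 for GDF15, a secreted stress cytokine, and 0.17 for ZMAT3, with a median of 0.02. Of 15 tested genes near the 10, 0 passed the test, with a median of -0.02. NADK2, near SKP2, was the 1 with an unadjusted p under 0.05, at 3.78 ± 0.257 and 4.42 ± 0.619 RPKM (limma, log2 fold change 0.21 ± 0.10 (SE), adjusted p = 0.711).

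**Figure D4:**
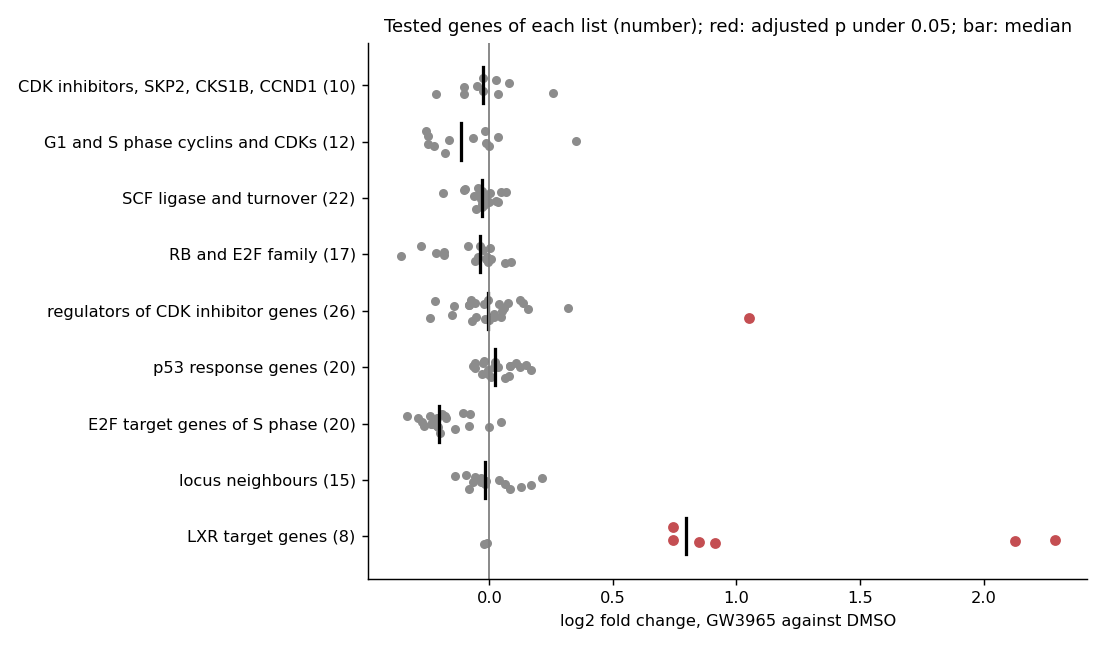
Log2 fold change of GW3965 against DMSO for each tested gene of 9 lists, with the number tested in parentheses, red for an adjusted p under 0.05 and a black bar at the median. In the first 8 lists KLF4 at 1.05 is the 1 red point, and the bar of the E2F target genes is at -0.20, while 6 of 8 LXR genes are red.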

How the data were processed

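Per the protocol text, total RNA of PC3 cells was sequenced with a stranded kit after depletion of ribosomal RNA. The records list the molecule as polyA RNA. The authors deposited RPKM values per gene and library from single reads of 50 bases. The submitters' processing notes name hg38, bcl2fastq 2.20.0.422, cutadapt, HISAT2 2.1.0, HTSeq 0.11.2 and DESeq2 1.22.2, whereas the methods name a mouse genome, and all gene identifiers are human. The annotation release is not given in the sources used here. Titles gave condition and replicate, 5 libraries each.

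Reads were recovered from the deposited RPKM steps for 47537 genes, and 15119 genes were 0 in every library. For 980 genes a common factor was set from GENCODE 29 lengths. The library factors in the RPKM values equaled median-of-ratios size factors of these reads to 7.77e-16. Reads have no molecular identifiers. No 2 libraries were near-identical, with a chi-square per degree of freedom from 8.91 to 103.

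log2(RPKM + 0.1) was tested for the 20402 genes averaging 0.5 RPKM or more, with limma 3.58.1 in R 4.3.3 (trend of the variance, two-sided, Benjamini-Hochberg, threshold 0.05). Ratios were tested with exact permutation tests (scipy 1.17.1). A test planned for genes under the filter was not needed. Reads were also simulated for 20402 genes with the library sizes of this comparison. On the log2 scale, 34 of 73 genes changed by 0.5, 61 of 67 by 1 and 54 of 60 by 2 were recovered. There were 10 unchanged among 159 called. The simulation gave all genes the same dispersion and the libraries no shared component, so these rates need not hold for the measured genes.

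The 10 genes and all lists were chosen with earlier results of these data known. From each list the genes past the threshold, those at either end and set partners of the 10 were named; MIR222HG and PCNA were added after their values were seen. Alternatives were pseudocounts of 1 and 0.01, other filters, scalings and weights, no trend, a replicate block and leaving out each library. Added after seeing the data were voom on recovered reads, the first principal component as a covariate (log2 of scaled reads plus 8, genes averaging 100 reads or more), leaving out the 3 libraries at its end, and GENCODE 29 lengths. The value of 1 marker gene is not reported here.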

Additional observations from a re-analysis of the deposited data

Results flagged for a closer look

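On the log2(RPKM + 0.1) scale, none of the 10 genes had a library set apart by more than the limit below. Over 57 genes of the lists in 2 conditions, 114 groups of 5 libraries were looked at, and in 6 the most extreme library was separated from the nearest other by more than 0.71 of the whole range on that scale. Chance flags about 1 in 20 groups, here 5.7. On the log2 scale, the share of the range taken by the gap was 0.861 for E2F1 in DMSO 1 (9.12 RPKM, against 14.3 to 15.4 in the other DMSO libraries). For CUL4A, a scaffold of the ligase that degrades p21 in S phase, it was 0.816 in DMSO 4 (10.7 against 8.94 to 9.23 RPKM). In the same library it was 0.748 for the p53 response gene CCNG1 (23.3 against 32.2 to 35.9 RPKM) and 0.851 for LMBRD2, near SKP2 (1.99 against 3.74 to 4.17 RPKM). It was 0.772 for RCHY1, a ligase with p27 among its substrates, in GW3965 4 (1.05 against 1.35 to 1.46 RPKM) and 0.711 for GDF15 in GW3965 5 (21.5 against 28.4 to 31.9 RPKM). On the RPKM scale itself 7 groups were past the limit. GDF15 (0.670) and CCNG1 (0.706) were not among them, and CDKN2B in DMSO 1 (0.721), ABCA1 in DMSO 1 (0.782) and MYLIP in DMSO 4 (0.711) were.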

How the results depend on the processing

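Of 220 log2 fold changes of the 10 genes over 22 alternatives, 0 passed the threshold, with a lowest adjusted p of 0.256 (CDKN2D, first principal component as a covariate, limma), and 11 had the other sign. These were CDKN1A without GW3965 3 (-0.0014), CCND1 without DMSO 1 (-0.0073), SKP2 without DMSO 2 (0.013), and CDKN2C without DMSO 4 (0.020), GW3965 1 (0.0037) or GW3965 2 (0.024). Over all losses of 1 library, the values ran from -0.0014 to 0.17 for CDKN1A, from -0.0073 to 0.081 for CCND1, from -0.097 to 0.013 for SKP2 and from -0.074 to 0.024 for CDKN2C, and without a change of sign from -0.19 to -0.012 for CKS1B, from -0.063 to -0.0023 for CDKN1B, from -0.15 to -0.063 for CDKN1C, from 0.0012 to 0.052 for CDKN2A, from 0.21 to 0.36 for CDKN2B and from -0.26 to -0.15 for CDKN2D. CDKN2C also turned with library weights (0.036) and with the component as a covariate (0.0055). Without the 3 libraries at the end of that component, CDKN2C (0.046), SKP2 (0.019), CKS1B (0.030) and the ratio of SKP2 to CDKN1B (0.052) turned positive. That ratio was also positive without DMSO 2, GW3965 1 or GW3965 2 (from -0.082 to 0.058 over all single losses), and CCND1 to CDKN1B was -0.0051 without DMSO 1 (up to 0.12 without GW3965 2). The cause was not tested. The ratio of CCND1 to CCND2 plus CCND3 was 0.18 with a pseudocount of 1 RPKM and then passed the threshold, and 1 of 56 ratio values did so. With the replicate block or with libraries left out, the smallest possible p is larger than with all 10 libraries. Most of the 56 could therefore hardly pass, and this count is no measure of how stable the ratio was. Genes past the threshold numbered 30 higher and 2 lower. They were 20 and 1 without a filter, 31 and 6 after quantile normalization, 19 and 1 without a trend, 54 and 2 with library weights, 59 and 4 by voom, 138 and 17 with the component as a covariate, 18 and 0 without the 3 libraries, and 17 to 37 higher and 0 to 2 lower with 1 library left out. With the replicate number as a block, 14 were higher and 2 lower. Same-numbered libraries did not deviate together (r from -0.14 to 0.16), so the numbers were not taken as pairs. KLF4 stayed past the threshold in all alternatives, with log2 fold changes from 0.86 to 1.09. In simulated data 34 of 73 changes of 0.5 on the log2 scale were recovered, so changes of that size or smaller can be missed. The simulated libraries had no shared component, so the share missed in the measured data is not known.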
